A study of Rattus norvegicus with 15 samples.

Results

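Genes of the interferon response and of antigen presentation were followed in the posterior cerebral artery of the rat. They are a list of 40 genes chosen by name and not by their values, and a gene was taken up where the array's annotation gave its symbol to a probe set, the group of short probes that reads a transcript. A probe set was found for 35 of the 40 genes, against 10411 genes on the whole array, and a gene with several probe sets was read from the brightest. Ifit2, Isg15, Gbp5, Xaf1 and Rtp4 were not analysed here. By role, the 35 genes comprised 10 of 10 of class I presentation, 7 of 7 of class II presentation, 13 of 18 interferon-induced effectors and 5 of 5 transcription factors of the interferon response. All 35 passed the filter on low signals.

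The study asked how this artery responds when it has to carry collateral flow, and measured 5 groups of 3 Affymetrix Rat230A arrays. Rats with 3-vessel occlusion (3VO) had both vertebral arteries coagulated and the left common carotid artery tied, and their arteries were taken after 24 h or after 3 d. Sham rats had the vessels exposed but not closed and were sampled at the same times, and intact rats had no operation. All were Sprague Dawley rats of 7 weeks and 300 to 350 g, and each array held RNA pooled from 8 animals. Operated rats received isoflurane (2% to 4%) and buprenorphine (0.1 mg/kg, then 0.05 mg/kg), and the vessels of all groups were filled with latex under papaverine dilation. No anaesthesia or analgesia at an operation is described for intact rats, so surgery, drugs and occlusion are all part of any difference from them. The treatment text of sham replicate 1 at 3 d describes the occlusion although its other labels say sham, and it was kept with the sham arrays. Intact arrays carry the last numbers of the series, so array order and the intact group cannot be told apart. The labels do not settle whether the 3 arrays of a group hold RNA of different rats, so the p-values measure the spread between these arrays, which may be technical.

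Interferons are secreted proteins that act through receptors, Janus kinases and transcription factors. Type I interferons lead to a complex that holds Stat2 and Irf9 on promoter elements named ISRE, and interferon gamma acts through elements named GAS. Many of the induced effectors block steps of viral growth. Class I molecules show cytosolic peptides, cut by the proteasome and carried into the endoplasmic reticulum by Tap1 and Tap2, on nearly all nucleated cells, and class II molecules show peptides from endosomes, mainly on macrophages, dendritic cells and B cells. The rat's major histocompatibility complex is named RT1. In brain arteries such class II cells are found mainly around the vessel and in the meninges.

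The promoters are shown because the class II windows differ from the class I and effector windows in how often they hold these elements. A promoter window was held for 31 of the 35 measured genes (RefSeq, GRCr8, 250 bases before to 50 after the start, 300 in all), and 4 motifs were searched on both strands. The ISRE letters, GAAA and GAAA with 2 free bases between them, stood in 8 of 10 class I windows, 0 of 6 class II windows, 9 of 10 effector windows and 1 of 5 transcription factor windows, against 3.92% of all 33469 windows. The Y box letters ATTGG stood in 6 of 6 class II, 4 of 10 class I, 4 of 10 effector and 3 of 5 transcription factor windows, against 37.5% of all windows. The X box core (AG, 2 free bases, AC, 1 free base, GATG) stood in 3 of the class II windows, against 0.95% of all windows. The GAS letters TTCNNNGAA stood in 3 of 5 transcription factor, 3 of 10 effector, 1 of 10 class I and 0 of 6 class II windows, against 8.87% of all windows. In Bst2 a GAS match overlaps an ISRE match. Tap1 and Psmb9 start 456 bases apart on chromosome 20 and run away from each other, and their windows share 44 bases. A match describes letters and is not a measured binding site. The 150 bases before the start are printed below for 9 genes with a match there, 5' to 3' on the gene's strand, with every match of the 4 motifs in capitals.
In Tap1, Rsad2 and Gbp2 the capitals are an ISRE on the strand that is not printed. RT1-S3 has an ISRE and then a Y box, both on the strand that is not printed. Ifitm3 has an ISRE on the printed strand followed by a GAS, and Irf1 a GAS and then a Y box on the strand that is not printed. In RT1-Da, RT1-Bb and RT1-Db1 they are the X box core and then the Y box, with a second Y box on the other strand in RT1-Db1.
Tap1 (chr20:4668544-4668693, minus strand): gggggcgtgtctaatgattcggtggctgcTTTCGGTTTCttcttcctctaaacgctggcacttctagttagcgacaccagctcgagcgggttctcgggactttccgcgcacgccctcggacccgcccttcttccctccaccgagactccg
RT1-S3 (chr20:2675378-2675527, plus strand): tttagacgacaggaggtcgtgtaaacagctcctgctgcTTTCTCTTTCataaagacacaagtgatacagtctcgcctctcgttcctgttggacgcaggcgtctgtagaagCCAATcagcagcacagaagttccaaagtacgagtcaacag
RT1-Da (chr20:4515265-4515414, plus strand): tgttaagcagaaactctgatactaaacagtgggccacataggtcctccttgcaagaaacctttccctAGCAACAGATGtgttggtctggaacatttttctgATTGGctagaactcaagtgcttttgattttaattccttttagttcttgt
RT1-Bb (chr20:4604119-4604268, minus strand): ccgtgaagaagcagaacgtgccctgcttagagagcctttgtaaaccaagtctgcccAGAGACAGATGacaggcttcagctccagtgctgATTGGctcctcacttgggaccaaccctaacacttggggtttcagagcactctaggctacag
RT1-Db1 (chr20:4560163-4560312, minus strand): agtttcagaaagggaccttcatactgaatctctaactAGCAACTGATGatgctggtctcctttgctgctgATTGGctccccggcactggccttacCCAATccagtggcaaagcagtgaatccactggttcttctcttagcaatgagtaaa
Ifitm3 (chr1:205541759-205541908, minus strand): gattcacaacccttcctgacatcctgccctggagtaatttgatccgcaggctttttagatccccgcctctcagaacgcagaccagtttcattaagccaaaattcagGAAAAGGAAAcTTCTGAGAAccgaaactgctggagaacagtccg
Rsad2 (chr6:48788121-48788270, minus strand): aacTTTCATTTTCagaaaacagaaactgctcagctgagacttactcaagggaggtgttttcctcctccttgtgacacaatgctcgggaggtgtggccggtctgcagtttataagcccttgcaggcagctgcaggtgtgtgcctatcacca
Gbp2 (chr2:234005577-234005726, plus strand): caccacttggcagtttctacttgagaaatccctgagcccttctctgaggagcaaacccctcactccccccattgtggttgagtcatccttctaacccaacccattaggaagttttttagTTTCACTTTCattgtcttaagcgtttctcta
Irf1 (chr10:38417785-38417934, plus strand): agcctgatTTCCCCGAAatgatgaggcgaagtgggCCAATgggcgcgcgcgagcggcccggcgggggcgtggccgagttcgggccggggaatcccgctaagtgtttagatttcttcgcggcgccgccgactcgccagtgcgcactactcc

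All signals are linear intensities, and differences are in log2(signal + 16), tested with limma and adjusted over 15737 probe sets. Smooth muscle and endothelial markers were present in every group, with the summed signal of 8 smooth muscle markers between 223932 and 497749. RNA of other tissue came along: the summed signal of 9 neuron markers ran from 43847 to 276596, and choroid plexus markers were summed at 499315 on sham replicate 3 at 3 d and at 520628 on intact replicate 2, against 27996 to 254613 on the other arrays. In pooled tissue RNA, fewer cells of a type and less RNA per cell cannot be told apart. No member passed an adjusted p of 0.05 in any of the 11 comparisons or in the F test over the 5 groups, where the lowest adjusted p was 0.158 (RT1-S3). At an unadjusted p under 0.05 the F test held 12 of 35 members, against 12.1% of all probe sets, and 0.0763% of all probe sets passed it after adjustment. The values below are therefore differences that did not pass, given with their standard errors (SE).

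Class I genes lay near a difference of 0 between 3VO and sham surgery and were lower on average in intact arteries. This held most of all for the heavy chain gene RT1-S3 and, on its brightest probe set only, for the transporter subunit Tap1. RT1-S3, whose probe sets may also read near-identical RT1 copies, had signals of 9159, 17209 and 13774 at 24 h after 3VO, and 15053, 14210 and 15498 at 24 h after sham surgery. At 3 d RT1-S3 had 8463, 9586 and 6877 after 3VO, and 13991, 10467 and 6098 after sham surgery. Intact arteries had 4213, 5025 and 7461. All 6 arrays of 24 h lay above all intact arrays, and the arrays of 3 d overlapped with intact replicate 3. Tap1, which carries peptides into the endoplasmic reticulum, had 1739, 3702 and 3140 at 24 h after 3VO, and 3788, 3443 and 3230 after sham surgery. At 3 d Tap1 had 1577, 2092 and 2990 after 3VO, and 3445, 2976 and 1468 after sham surgery, with 1314, 1010 and 1789 in intact arteries. All 3 sham arrays of 24 h exceeded all intact arrays for Tap1, whereas 1 array in each other operated group lay below intact replicate 3.

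The immunoproteasome subunits had a narrower spread. Psmb9 had 7304, 8836 and 9508 at 24 h after 3VO and 8853, 9960 and 7485 after sham surgery. At 3 d Psmb9 had 7460, 10533 and 9422 after 3VO and 8351, 7533 and 8056 after sham surgery, with 6525, 5729 and 6886 in intact arteries. Every operated array was thus above every intact array for Psmb9. Psmb10 had 5706, 6812 and 6548 at 24 h after 3VO and 6716, 5770 and 5549 after sham surgery, and at 3 d 5796, 6980 and 6502 after 3VO and 6485, 5429 and 6387 after sham surgery. Intact arteries had 4611, 4874 and 5721, and only replicate 3 reached into the operated range.

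Between 3VO and sham arteries the class I genes lay close to 0. Their median log2 difference was -0.04 at 24 h (3 of 10 higher, between -0.35 for Tap1 and 0.12 for the proteasome activator Psme1) and -0.05 at 3 d (4 of 10 higher, between -0.23 for RT1-S3 and 0.18 for Psmb9). None had an unadjusted p under 0.05 at either time. B2m, the light chain of every class I molecule, averaged 169000 ± 19800 at 24 h (SD, n = 3) in 3VO arteries and 164000 ± 13700 in sham arteries, and 165000 ± 24500 at 3 d in 3VO arteries and 157000 ± 23100 in sham arteries. Intact arteries averaged 129000 ± 31000 for B2m.

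The remaining class I genes were higher in the mean of the operated groups than in intact arteries by 0.11 to 0.40 on the log2 scale, with overlapping arrays. They were the second transporter subunit Tap2 (0.25, SE 0.16), the loading chaperone Tapbp (0.11, SE 0.16), the immunoproteasome subunit Psmb8 (0.28, SE 0.14), and the proteasome activator subunits Psme1 (0.40, SE 0.18) and Psme2 (0.30, SE 0.17). B2m differed by 0.37 (SE 0.15, adjusted p = 0.238).

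**Figure D1:**
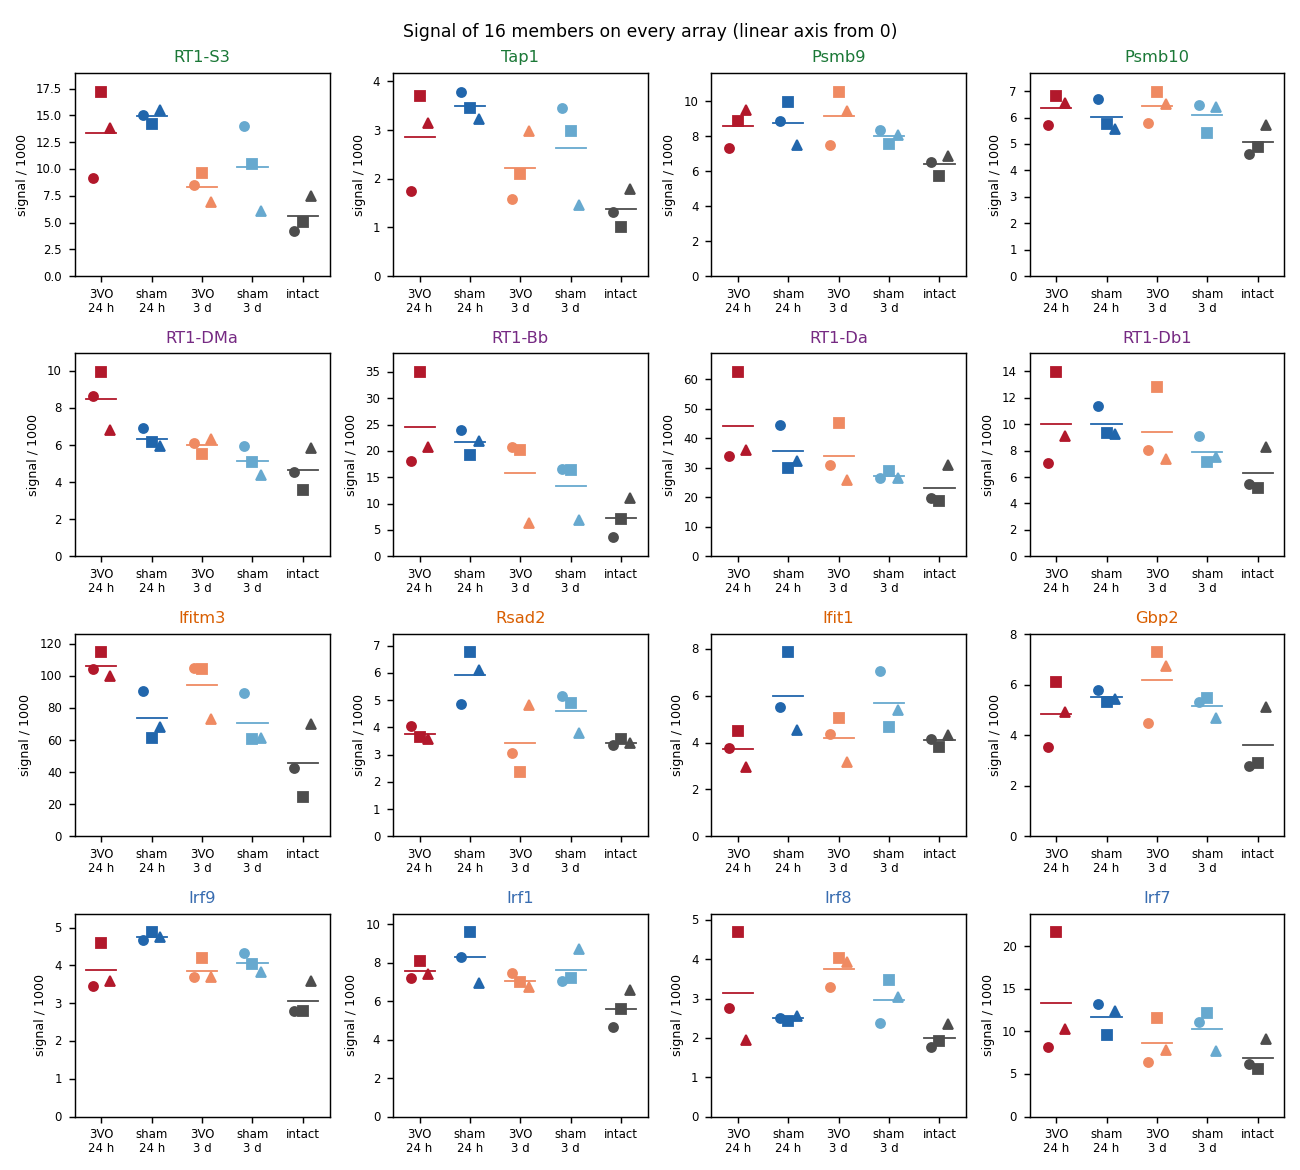
Signal divided by 1000 (linear axes from 0) of the 4 members per role with the smallest F test p, with class I in green, class II in purple, effectors in orange and transcription factors in blue titles. Circles, squares and triangles are replicates 1, 2 and 3 of each group and bars are group means. Intact arrays are the lowest group for RT1-S3, Tap1, Psmb9 and Irf1, while Rsad2 at 24 h is lower on all 3 arrays after 3VO (3582 to 4039) than after sham surgery (4857 to 6767).

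Read from their brightest probe sets, class II genes were by their median higher after 3VO than after sham surgery, and lowest in intact arteries. At 24 h RT1-Db1 (-0.04) and Cd74 (-0.03) were not higher after 3VO, and the other genes of the list were. For most of them 1 array of 3VO at 24 h lay far above the others, and the median at 24 h turned without it, as given below. RT1-Da, the invariant alpha chain of the RT1-D molecule, had signals of 34184, 62603 and 36066 at 24 h after 3VO and 44692, 29915 and 32254 after sham surgery. At 3 d RT1-Da had 30936, 45363 and 25797 after 3VO and 26709, 28772 and 26695 after sham surgery, with 19710, 18584 and 31022 in intact arteries. The 3VO and sham arrays overlapped at both times. RT1-Db1, the beta chain that pairs with it, had 7082, 13973 and 9103 at 24 h after 3VO and 11363, 9350 and 9252 after sham surgery. At 3 d RT1-Db1 had 8033, 12831 and 7392 after 3VO and 9132, 7161 and 7497 after sham surgery, with 5463, 5163 and 8244 in intact arteries. Replicate 2 of each 3VO group stood apart from its group for both chains.

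RT1-Bb, the beta chain of the RT1-B molecule, had 18083, 35026 and 20660 at 24 h after 3VO and 23882, 19297 and 21812 after sham surgery. At 3 d RT1-Bb had 20780, 20143 and 6259 after 3VO and 16558, 16428 and 6880 after sham surgery, with 3583, 7124 and 11085 in intact arteries. The arrays of 24 h all exceeded the intact arrays, and replicate 3 of both groups of 3 d fell within the intact range. RT1-DMa, a subunit of the DM chaperone that loads peptides onto class II molecules, had 8661, 9948 and 6798 at 24 h after 3VO and 6916, 6166 and 5972 after sham surgery. At 3 d RT1-DMa had 6115, 5525 and 6348 after 3VO and 5942, 5099 and 4400 after sham surgery, with 4541, 3562 and 5862 in intact arteries. Its difference between 3VO and sham surgery was 0.40 at 24 h (SE 0.19, unadjusted p = 0.0499, limma adjusted p = 0.713) and 0.31 over both times (SE 0.13, adjusted p = 0.507), with overlapping arrays.

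Cd74, the invariant chain that escorts class II molecules to the endosome, averaged 60700 ± 15000 at 24 h (SD, n = 3) in 3VO arteries and 61300 ± 9150 in sham arteries, and 53800 ± 11700 at 3 d in 3VO arteries and 47200 ± 9070 in sham arteries, with 46900 ± 15000 in intact arteries. The differences were smaller than the spread between arrays. RT1-DMb, the partner of RT1-DMa, averaged 15200 ± 5150 at 24 h in 3VO arteries and 11500 ± 3130 in sham arteries (0.39, SE 0.23, adjusted p = 0.796).

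As a list, class II genes had a median log2 difference between 3VO and sham surgery of 0.13 at 24 h, with 5 of 7 higher, and of 0.18 at 3 d, with 7 of 7 higher. Over all probe sets the medians were -0.02 at 24 h and -0.01 at 3 d. The class II median at 24 h rested on single arrays: it was -0.16 without 3VO replicate 2 and 0.37 without 3VO replicate 1, and at 3 d it was 0.02 without 3VO replicate 2. 3VO replicate 2 at 24 h had the highest signal of all 15 arrays for 6 of 7 class II genes and for 12 of 14 macrophage markers, and its neuron markers (67293 in sum) were lower than on the other 3VO arrays of 24 h (133949 and 143825). Macrophage markers, whose cells carry class II molecules, were summed at 405028 to 547036 at 24 h after 3VO and 308819 to 424158 after sham surgery. At 3 d they were summed at 361370 to 426286 after 3VO and 291032 to 331436 after sham surgery, and in intact arteries at 224565 to 372989. The mean over both times was higher after 3VO for 14 of 14 macrophage markers, with Fcgr2b and C1qb past the threshold, and their part in the class II values was not tested. Of the other cells that present by class II, 3 of 10 dendritic cell markers and 1 of 6 B cell markers were measured, with summed signals of 5132 to 23458 and of 122 to 937 over the 15 arrays. Clec10a alone, at 2894 to 20535, was the larger part of the dendritic cell sum on every array, so this sum mainly reads 1 gene.

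The brightest probe set and the second one ran in opposite directions for RT1-Ba and RT1-Bb, so the direction of these genes is not settled. The second probe set of RT1-Bb had 640, 1097 and 589 at 24 h after 3VO and 728, 405 and 1065 after sham surgery. At 3 d this probe set had 135, 4765 and 4694 after 3VO and 710, 1464 and 3075 after sham surgery, against 3984, 2802 and 4538 in intact arteries. Every array of 24 h was below every intact array, where the brightest probe set had every array of 24 h above them. Between all operated arteries and intact arteries the second probe set differed by -1.83 for RT1-Bb (SE 0.77, limma adjusted p = 0.25) and by -0.81 for RT1-Ba (SE 0.33, adjusted p = 0.229), and the brightest ones by 1.38 and 0.41. Of the 10 further probe sets of the 8 members with more than 1, 8 had the sign of the brightest in that comparison, among them the other 3 of RT1-S3 (1.0, 0.93 and 0.43). The second probe set of Tap1 had that sign but was at 0.01 (SE 0.61), against 0.99 for the brightest. For 3VO against sham surgery at 24 h it was at 0.64 (SE 0.77), against -0.35, so the rise of Tap1 rests on 1 probe set.

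**Figure D2:**
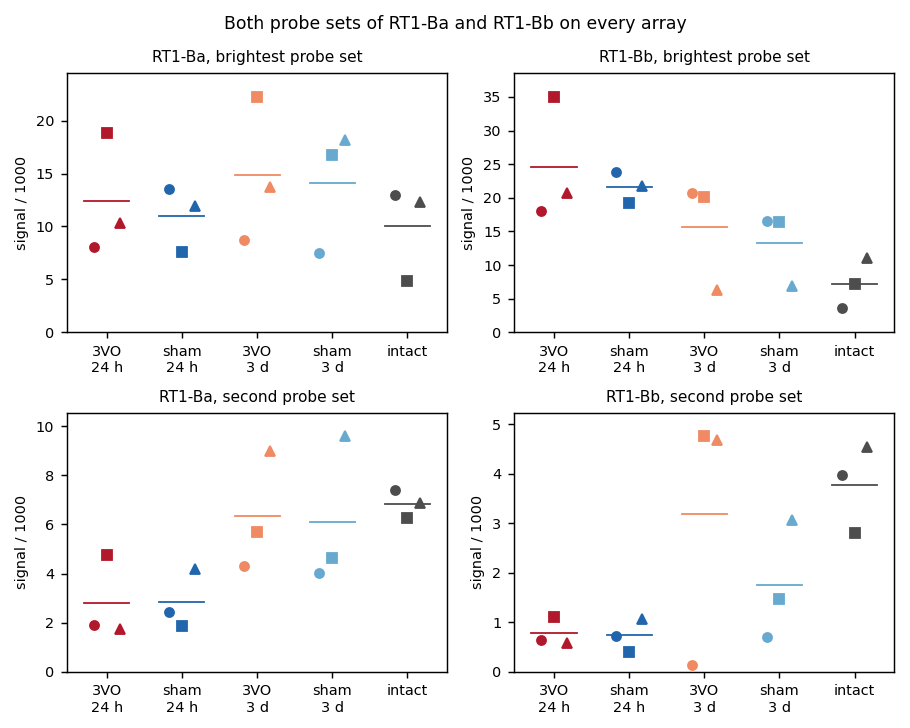
Signal divided by 1000 (linear axes from 0) of both probe sets of RT1-Ba and RT1-Bb on every array. Circles, squares and triangles are replicates 1, 2 and 3 and bars are group means. For RT1-Bb the arrays of 24 h lie above intact arteries with the brightest probe set (18083 to 35026, against 3583 to 11085) and below them with the second (405 to 1097, against 2802 to 4538).

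Of the 13 effectors 8 were lower and 5 higher after 3VO than after sham surgery at 24 h, with Ifit1 and Rsad2 at one end and Ifitm3 at the other, and none of these differences passed adjustment. Rsad2 (viperin), an enzyme that makes a chain-terminating nucleotide, had signals of 4039, 3630 and 3582 at 24 h after 3VO and 4857, 6767 and 6093 after sham surgery. At 3 d Rsad2 had 3076, 2348 and 4812 after 3VO and 5152, 4906 and 3790 after sham surgery, with 3349, 3563 and 3419 in intact arteries. All sham arrays of both times lay above the intact arrays, and at 24 h all 3VO arrays lay below the sham arrays. Its difference between 3VO and sham surgery was -0.64 at 24 h (SE 0.22, unadjusted p = 0.0117, adjusted p = 0.554), -0.49 at 3 d (SE 0.22, unadjusted p = 0.0461, adjusted p = 0.999) and -0.56 over both times (SE 0.16, unadjusted p = 0.00283, adjusted p = 0.295). Over all alternative settings the last value lay between -0.74 and -0.45.

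Ifit1, which binds foreign RNA lacking a host cap, showed the same order. It had 3764, 4499 and 2975 at 24 h after 3VO and 5526, 7863 and 4542 after sham surgery, and at 3 d 4386, 5027 and 3181 after 3VO and 7032, 4647 and 5390 after sham surgery. Intact arteries had 4170, 3832 and 4308. The arrays did not overlap between 3VO and sham surgery at 24 h, and at 3 d a single array of 3VO (5027) reached above the lowest sham array. The difference was -0.65 at 24 h (SE 0.23, unadjusted p = 0.0132, adjusted p = 0.571) and -0.55 over both times (SE 0.16, unadjusted p = 0.00463, adjusted p = 0.322).

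Ifitm3, a membrane protein that hinders viral fusion, had 104219, 114850 and 100033 at 24 h after 3VO and 90752, 61488 and 68117 after sham surgery. At 3 d Ifitm3 had 104703, 104191 and 73416 after 3VO and 89413, 60572 and 61494 after sham surgery, with 42454, 24823 and 70264 in intact arteries. The 3VO arrays exceeded the sham arrays at 24 h and all 6 exceeded the intact arrays. The difference was 0.55 at 24 h (SE 0.29, adjusted p = 0.774), 0.42 at 3 d (SE 0.29, adjusted p = 0.999) and 0.49 over both times (SE 0.21, unadjusted p = 0.0333, adjusted p = 0.512). Gbp2, a GTPase that gathers on the vacuoles of microbes, had 3520, 6123 and 4908 at 24 h after 3VO and 5794, 5334 and 5448 after sham surgery, and at 3 d 4502, 7302 and 6753 after 3VO and 5324, 5496 and 4695 after sham surgery. Intact arteries had 2780, 2920 and 5125, and Gbp2 overlapped between 3VO and sham surgery at both times.

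Across the 13 effectors the median log2 difference at 24 h was -0.22, with 8 lower and 5 higher. Lower beside Rsad2 and Ifit1 were the GTPase Mx2 (-0.64), the deconjugase of Isg15, Usp18 (-0.62, unadjusted p = 0.0414), the RNase L activator Oas1a (-0.53) and the exonuclease Isg20 (-0.40). Higher beside Ifitm3 was Ifit3 (0.49), which rested on 3VO replicate 2 (6950, against 3251 and 2460 on the other 3VO arrays). Ifi27, Bst2, Ifitm2 and the GTPase Mx1 differed by -0.09 to 0.09 at 24 h, each by less than its SE. At 3 d the median was -0.06, again with 8 lower and 5 higher. The effector median at 24 h was -0.41 without 3VO replicate 2, -0.01 without 3VO replicate 1, and 0.12 with the level of neuron markers as a covariate.

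Irf9, the DNA-binding part of the type I interferon complex, had signals of 3447, 4589 and 3576 at 24 h after 3VO and 4670, 4881 and 4743 after sham surgery. At 3 d Irf9 had 3686, 4187 and 3697 after 3VO and 4326, 4028 and 3818 after sham surgery, with 2802, 2804 and 3599 in intact arteries. At 24 h all 3VO arrays lay below all sham arrays (-0.31, SE 0.16, adjusted p = 0.752), and all sham arrays of both times lay above the intact arrays. Irf1, the regulator through which interferon gamma reaches the class I genes, had 7236, 8110 and 7430 at 24 h after 3VO and 8289, 9600 and 6958 after sham surgery. At 3 d Irf1 had 7462, 6988 and 6723 after 3VO and 7038, 7203 and 8722 after sham surgery, with 4641, 5592 and 6571 in intact arteries. All 12 operated arrays exceeded the intact arrays for Irf1.

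Irf7, which amplifies type I interferon production, had 8104, 21643 and 10238 at 24 h after 3VO and 13231, 9566 and 12422 after sham surgery. At 3 d Irf7 had 6428, 11542 and 7816 after 3VO and 11070, 12137 and 7748 after sham surgery, with 6119, 5550 and 9112 in intact arteries. The high value is again 3VO replicate 2. Irf8, a factor of the myeloid lineage, had 2761, 4689 and 1944 at 24 h after 3VO and 2494, 2430 and 2562 after sham surgery. At 3 d Irf8 had 3284, 4023 and 3941 after 3VO and 2368, 3467 and 3040 after sham surgery, with 1757, 1928 and 2344 in intact arteries. Irf8 was higher after 3VO at 24 h (0.23, SE 0.27, adjusted p = 0.916) and at 3 d (0.35, SE 0.27, adjusted p = 0.999), with overlapping arrays. Stat2, a partner of Irf9 in its complex, differed by -0.28 at 24 h (SE 0.18, adjusted p = 0.807) and by 0.24 at 3 d (SE 0.18, adjusted p = 0.999). The median of the 5 factors was -0.11 at 24 h and -0.07 at 3 d, and at 24 h it was -0.35 without 3VO replicate 2.

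Over all 35 members, 15 were higher after 3VO than after sham surgery at 24 h and 18 at 3 d, against 47.3% and 48.5% of all probe sets. At 24 h 4 members had an unadjusted p under 0.05, 1 higher (RT1-DMa) and 3 lower (Ifit1, Rsad2 and Usp18), against 3.25% and 3.72% of all probe sets. After adjustment 0.0508% of all probe sets passed. The arrays did not overlap for 1 member higher (Ifitm3) and 4 lower (Ifit1, Isg20, Rsad2 and Irf9), against 6.42% and 9% of all probe sets. At 3 d 1 member (Rsad2) had an unadjusted p under 0.05, against 4.73% of all probe sets, the arrays of every member overlapped, against 9.09% without overlap, and 0% passed after adjustment. No member had an unadjusted p under 0.05 for the difference of the 3VO effect between 3 d and 24 h, against 2.78% of all probe sets, and 0% passed. Over both times 4 members did, 2 higher and 2 lower, against 8.69% of all probe sets, with 0.14% past the adjusted threshold. By unadjusted p and by overlap, the shares lay above those of all probe sets in some cases and below in others. Each rests on 4 or fewer of 35 members by direction, and the distance from all probe sets was not tested.

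Directions and counts by direction moved with single arrays. Over the alternative settings 18 of 35 members took the other sign in at least 1 setting at 24 h and 17 at 3 d. Without 3VO replicate 2 of 24 h, Irf8 was at -0.11 and Irf7 at -0.35, against 0.23 and 0.06 with all arrays. RT1-Db1 was at -0.04 at 24 h with all arrays and between -0.31 and 0.42 over the settings. Of the 35 members, 22 were higher without 3VO replicate 1 and 8 without 3VO replicate 2, and at 3 d 22 without 3VO replicate 1 and 13 without 3VO replicate 2. Leaving out sham replicate 1 of 3 d, whose treatment text describes the occlusion, gave 21 higher at 3 d, with a median of 0.09. RT1-S3 was then at 0.04 and Ifitm3 at 0.61, against -0.23 and 0.42 with all arrays. With the level of neuron markers as a covariate, an alternative chosen after seeing the data, 25 were higher at 24 h and 23 at 3 d. The class II median was then 0.57 at 24 h and 0.29 at 3 d, and the class I median 0.19 at 24 h. Neuron markers at 24 h were higher after 3VO than after sham surgery for 9 of 9, with a median of 1.19, and their part in these values was not tested. Smooth muscle markers at 24 h were lower after 3VO for 8 of 8, with a median of -0.67.

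**Figure D3:**
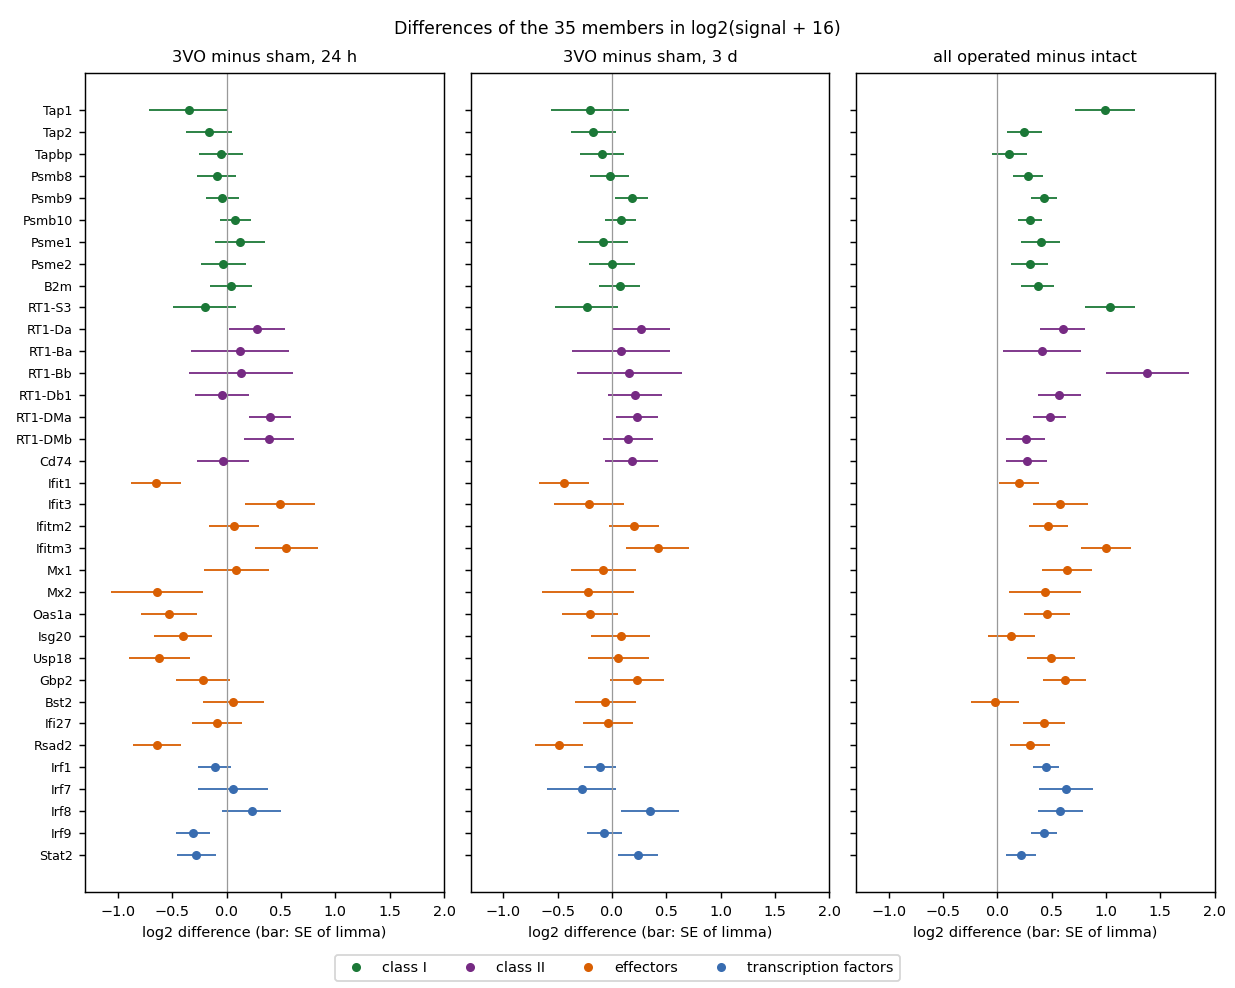
Log2 difference of each of the 35 members with its standard error (bars) for 3VO minus sham surgery at 24 h, 3VO minus sham surgery at 3 d, and all operated arteries minus intact arteries, coloured by role. The first panel scatters around 0 with Ifit1, Rsad2, Mx2 and Usp18 between -0.65 and -0.62, and in the third 34 of 35 members lie above 0.

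The 17 presentation genes had a median log2 difference between 3VO and sham surgery of -0.03 at 24 h and 0.08 at 3 d, with 8 and 11 of them higher. The 18 interferon-induced genes and factors had medians of -0.17 at 24 h and -0.06 at 3 d, with 7 higher at each time. Against intact arteries at 24 h the presentation genes had medians of 0.42 after 3VO and 0.43 after sham surgery, and the interferon-induced genes of 0.39 after 3VO and 0.61 after sham surgery. The difference between the lists was not tested.

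All 4 operated groups were higher than intact arteries for nearly every member, and as these comparisons share the 3 intact arrays they are given side by side and not counted together. The number of members higher than in intact arteries was 33 of 35 at 24 h after 3VO, 35 at 24 h after sham surgery, 33 at 3 d after 3VO and 34 at 3 d after sham surgery. Of all probe sets 50.6%, 54.2%, 57% and 58.8% were higher in the same 4 comparisons. Adjusted p-values passed for 0 members in each, against 0.184%, 0%, 0.222% and 0% of all probe sets. At an unadjusted p under 0.05 the counts were 15, 18, 11 and 7 members, against 9.96%, 15%, 12.9% and 14.2% of all probe sets. Arrays did not overlap, with the operated ones higher, for 10, 16, 8 and 6 members, against 7.59%, 9.96%, 10.3% and 9.86% of all probe sets.

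Taken as 1 group of 12, a comparison added after seeing the data, operated arteries were higher than intact ones for 34 of 35 members, against 56.2% of all probe sets. With the mean over all probe sets of a gene in place of the brightest, 32 were higher, as RT1-Ba (-0.2) and RT1-Bb (-0.22) then turned. The median log2 difference was 0.43 over the members and 0.05 over all probe sets. By role the medians were 0.34 for class I, 0.48 for class II, 0.46 for effectors and 0.45 for transcription factors. An unadjusted p under 0.05 was reached by 22 members, all higher, against 10.2% of all probe sets, and 0 passed after adjustment, against 0.432%. The lowest adjusted p-values of limma were 0.0629 for RT1-S3 (1.04, SE 0.23), 0.0754 for Ifitm3 (1.0, SE 0.23) and 0.0996 for Irf1 (0.45, SE 0.12). Next came RT1-Bb at 0.105 (1.38, SE 0.38) and Tap1 at 0.11 (0.99, SE 0.28), both on their brightest probe sets only, and Psmb9 at 0.11 (0.43, SE 0.12). The member that was not higher was Bst2, a tether of budding virus (-0.02, SE 0.22). Irf1 and Psmb9 had no overlap between the 12 operated and 3 intact arrays, 2 of 35 members, against 1.08% of all probe sets.

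The 3 intact arrays were not alike. Intact replicate 1 was below every operated array for 26 members and replicate 2 for 24, whereas replicate 3 was for 2. Replicates 1 and 2 were both below replicate 3 for 32 of 35 members. Replicate 3 was below the median of the operated arrays for 22 members, and each of the others for 34. Without replicate 3, 13 members passed in the comparison of operated with intact arteries (Tap1, Psme1, B2m, RT1-S3, RT1-Da, RT1-Bb, RT1-DMa, Ifitm2, Ifitm3, Gbp2, Ifi27, Irf1 and Irf9), against 5.89% of all probe sets. Then 6 members passed at 24 h after 3VO (1.44% of all probe sets), 10 at 24 h after sham surgery (5.2%), 3 at 3 d after 3VO (1.64%) and 0 at 3 d after sham surgery.

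Markers of neurons, macrophages, endothelium, leptomeninges and erythroid cells moved with this split of the intact arrays. The 9 neuron markers were summed at 276596, 168221 and 86833 on intact replicates 1, 2 and 3, against 43847 to 143825 on the operated arrays. Macrophage markers were summed at 250136, 224565 and 372989 on the same 3 intact arrays, against 291032 to 547036 on the operated arrays. Endothelial markers were summed at 60814, 73296 and 113623, leptomeningeal fibroblast markers at 614953, 651164 and 808635, and erythroid markers at 223681, 197720 and 314409 on intact replicates 1, 2 and 3. With the neuron marker level as a covariate, 28 of 35 members were higher in operated arteries, the median was 0.15, and no member passed the threshold. RT1-S3 (0.68), RT1-Bb (0.68), Tap1 (0.84) and Ifitm3 (0.63) kept a positive difference, with RT1-Bb and Tap1 read from their brightest probe sets. Tapbp (-0.15), Cd74 (-0.08) and RT1-DMb (-0.05) were among the members that turned. For class II the medians of the sham groups against intact arteries were then -0.04 at 24 h and -0.18 at 3 d, against 0.47 and 0.28 without the covariate. With sham replicate 3 of 3 d and intact replicate 2 left out for their choroid plexus markers, 33 of 35 members were higher with a median of 0.32 and none passed. The part of the other cell markers in these values was not tested.

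**Figure D4:**
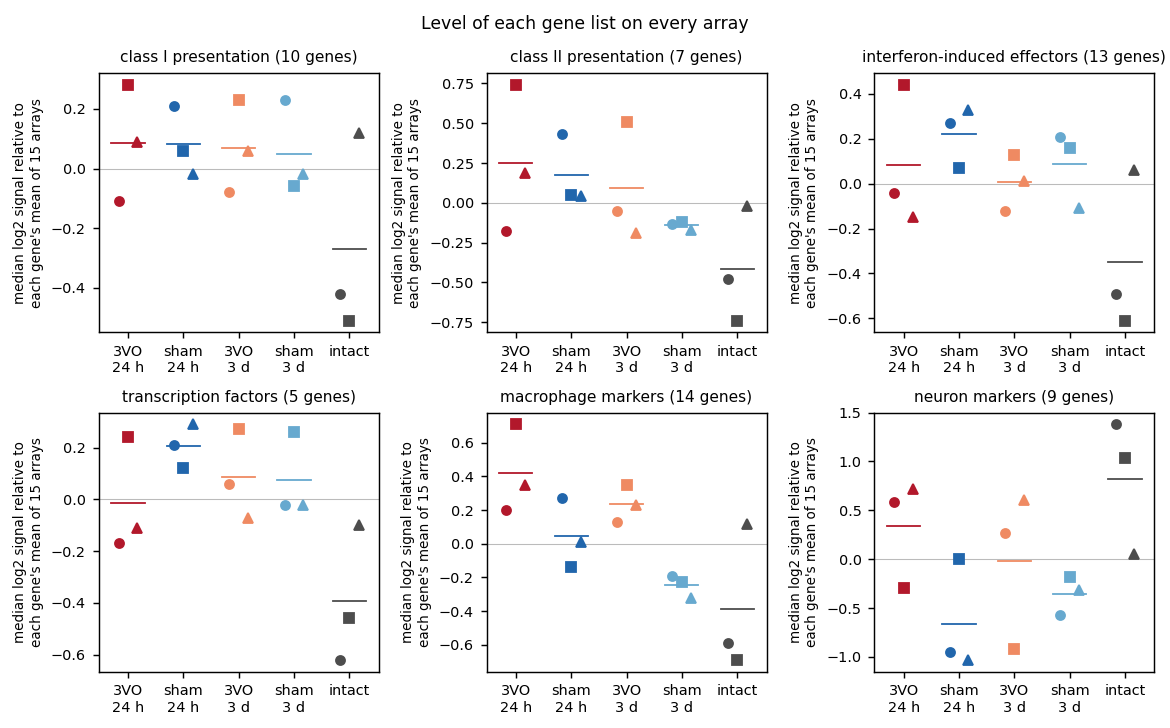
Level of the 4 roles and of macrophage and neuron markers on each array, as the median over genes of the log2 signal relative to that gene's mean over 15 arrays. Circles, squares and triangles are replicates 1, 2 and 3 and bars are group means. Intact replicates 1 and 2 are low for all 4 roles (-0.42 and -0.51 for class I) and high for neuron markers (1.38 and 1.04), and 3VO replicate 2 at 24 h is high for class II (0.74) and macrophage markers (0.71).

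**Figure D5:**
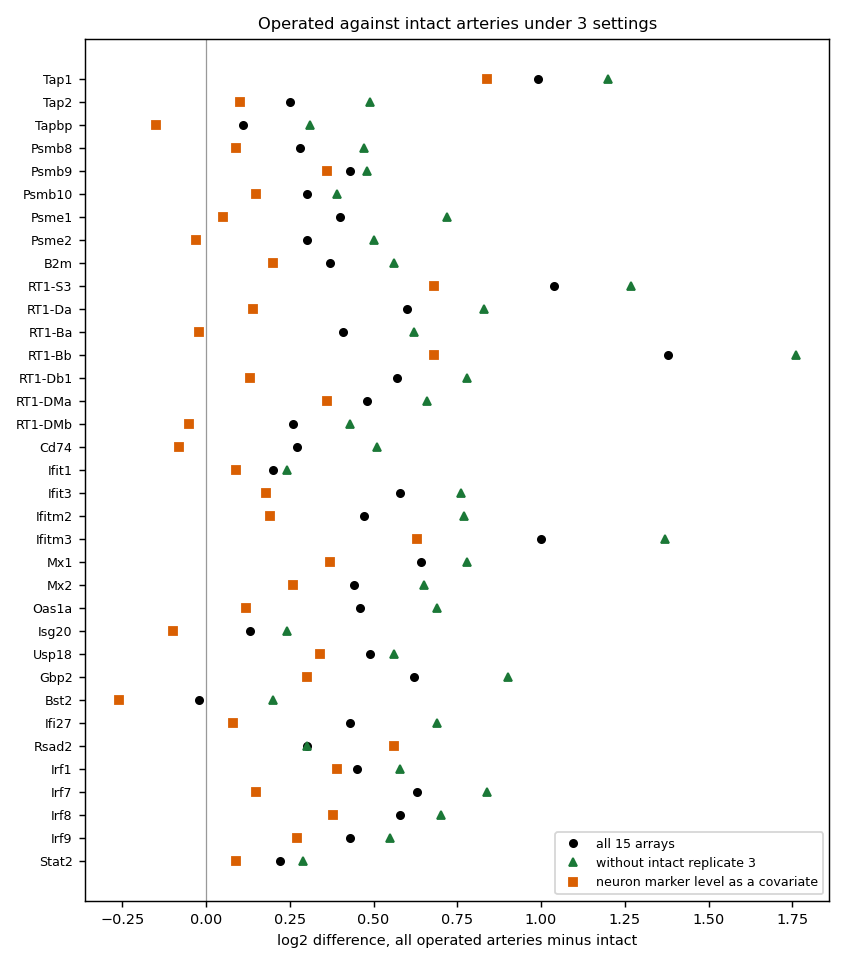
Log2 difference of each member between all operated and intact arteries with all 15 arrays (circles), without intact replicate 3 (triangles) and with the neuron marker level as a covariate (squares). The median over members is 0.43, 0.62 and 0.15 in these settings.

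From 24 h to 3 d the members were mostly lower after sham surgery. At 3 d against 24 h 7 of 35 members were higher after sham surgery, against 54.6% of all probe sets, and 6 were lower with no overlap of their arrays (RT1-S3, RT1-Da, RT1-Bb, RT1-Db1, RT1-DMa and Irf9), against 4.55% of all probe sets. Macrophage markers were lower at 3 d for 14 of 14 (median -0.26) and dendritic cell markers for 3 of 3 (median -0.27) after sham surgery, and their part was not tested. The second probe set of RT1-Bb was higher at 3 d after sham surgery (1.1, SE 0.98), against -0.81 for the brightest (SE 0.48). RT1-S3 differed by -0.63 after sham surgery (SE 0.29, unadjusted p = 0.0439, adjusted p = 0.87) and by -0.65 after 3VO (SE 0.29, unadjusted p = 0.0378, adjusted p = 0.845). After 3VO RT1-DMa (-0.48, SE 0.19, adjusted p = 0.834) was the member whose arrays did not overlap, against 4.68% of all probe sets that were lower without overlap. At an unadjusted p under 0.05 there were 1 member after sham surgery and 3 after 3VO (RT1-S3, RT1-DMa and the effector Ifit3), against 5.65% and 5.76% of all probe sets, and 0% passed adjustment in either.

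Further genes of the pathway were read from 5 lists with 53 measured genes. Ifitm1, a neighbour of Ifitm3 in the same family, had signals of 43262, 58864 and 58706 at 24 h after 3VO and 30263, 21348 and 24392 after sham surgery. At 3 d Ifitm1 had 44744, 57153 and 49859 after 3VO and 29780, 21644 and 23905 after sham surgery, with 18823, 15536 and 30102 in intact arteries. All 6 arrays of 3VO lay above all other arrays. It rose over both times (log2 1.05, SE 0.16, limma adjusted p = 0.0141), and against intact arteries at 24 h (1.36, adjusted p = 0.021) and 3 d (1.28, adjusted p = 0.0321). RT1-CE10, a class I heavy chain whose probe set may read other RT1 copies, had 16822, 22500 and 16320 at 24 h after 3VO and 14521, 17198 and 12778 after sham surgery. At 3 d RT1-CE10 had 15829, 16194 and 10966 after 3VO and 19201, 8993 and 6655 after sham surgery, with 3175, 4854 and 6528 in intact arteries. Every operated array exceeded every intact array, and RT1-CE10 rose at 24 h after 3VO against intact arteries (1.98, SE 0.33, adjusted p = 0.0215) and in all operated arteries (1.60, SE 0.26, adjusted p = 0.0336).

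No gene of the 3 lists of ligands and receptors, signal transducers, and sensors passed in any comparison. Of 6 measured interferons and receptors 6 were higher after 3VO than after sham surgery over both times. Among them were the receptor chain Ifngr2 (0.30, SE 0.09, adjusted p = 0.313) and interferon gamma itself, Ifng (1.35, SE 0.47, adjusted p = 0.424). Ifng had low signals of 337 to 668 after 3VO and 74 to 448 after sham surgery, against array medians of 2559.4 to 2940.9. Intact arteries had 663, 583 and 239 for Ifng, so 3VO arteries were not above them. Ifnb1 was also low, at 149 to 1274 on the operated arrays with a median of 204. Of 7 transducers and brakes 7 were higher, with a median of 0.13, among them Socs1 (32 to 350) and Irf2 (70 to 242) with low signals on the operated arrays. Of 6 nucleic acid sensors and adaptors 2 were higher, with Sting1 at 0.44 (adjusted p = 0.444) and Irf3 at -0.42 (adjusted p = 0.41). Of all probe sets 47.3% were higher after 3VO at 24 h and 48.5% at 3 d, and the share over both times is not given here. Among 18 further presentation genes 12 were higher, among them the thiol reductase Ifi30 (0.25, adjusted p = 0.498) and the chaperone Pdia3 (0.24, adjusted p = 0.502). Of 16 further interferon-induced genes 6 were higher and 10 lower. The chemokine Cxcl10, which draws activated T cells, had signals of 1091, 1389 and 1407 at 24 h after 3VO and 3131, 2084 and 2526 after sham surgery. Its arrays did not overlap at 24 h (-0.98, SE 0.24, unadjusted p = 0.000967, adjusted p = 0.264), in the direction of Rsad2 and Ifit1. The glycan-binding Lgals9 had 4697, 5467 and 5635 at 24 h after 3VO and 7613, 7366 and 7540 after sham surgery (-0.51, SE 0.22, adjusted p = 0.668).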

How the data were processed

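Affymetrix Rat230A arrays hybridised with RNA from rat posterior cerebral arteries were measured in 5 groups of 3. The deposited values are linear intensities made by the authors with GCOS (version not given in the sources used here), per the submitters' processing notes and labels, and scaled per array. The labels state a target of 500, whereas the mean without the outer 2% was 5000 on every array, a ratio of 10 that leaves differences between arrays as they are. Array medians ran from 2559.4 to 2940.9, and the number of arrays limits the precision.

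From these intensities log2(signal + 16) was taken, and 15737 of 15866 probe sets had 100 or more on at least 3 arrays and were tested (57 controls left out). limma 3.58.1 in R 4.3.3 fitted 5 group means (eBayes with trend, Benjamini-Hochberg over all probe sets), and the script was tested on simulated data. Differences are on the log2(value + 16) scale and understate those of low genes. GEO's platform annotation named 12783 probe sets by 1 gene, 312 by several and 2771 by none, and only those of 1 gene were used. The adjusted threshold was 0.05.

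Members, lists and comparisons were chosen with earlier results of these data known. Shown in full are members past the threshold and the 4 of each role with the smallest F test p, and of the other pathway lists those that passed and up to 3 with the smallest F test p. Other members are named where a count of 5 or fewer or a range falls on them. The alternatives were the pseudocount, the signal filter, quantile normalization, median centring, array weights, no variance trend, all probe sets of a gene, only the groups compared, and each array left out. The comparison of operated with intact arteries, the removal of 2 choroid-plexus-rich arrays and the neuron covariate were added after seeing the data. Promoter sequences are from RefSeq, GRCr8.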

Additional observations from a re-analysis of the deposited data

How the results depend on the processing

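No paired analysis was possible because the labels give no replicate numbers that link arrays of different groups. The number of members past the threshold stayed at 0 in every alternative for the comparisons of 3VO with sham surgery at 24 h, at 3 d, over both times and between the times, for 3 d against 24 h after either operation, and for sham surgery at 3 d against intact arteries. Leaving out 1 array in turn gave 0 to 6 members for 3VO at 24 h against intact arteries, 0 to 3 for 3VO at 3 d, 0 to 10 for sham surgery at 24 h, 0 to 13 for all operated arteries and 0 to 1 for the F test. The upper values are those without intact replicate 3. For the comparisons with intact arteries, the shares of all probe sets that passed in that setting are given above. Without sham replicate 3 of 3 d, 1 member (RT1-S3) passed in the comparison of all operated with intact arteries. With array weights 1 member passed for 3VO at 24 h against intact arteries (Ifitm3, 1.38, adjusted p = 0.0456). The shares of all probe sets that passed in these settings are not given here, so these single members are not set against the whole array. The difference of RT1-Bb at 24 h after 3VO against intact arteries was 1.84 and turned to -0.22 with the mean over its probe sets. The other members shown per array kept their sign in the 1 comparison with their smallest p. In other comparisons signs turned in at least 1 alternative for 18 of 35 members for 3VO against sham surgery at 24 h, 17 at 3 d, 18 over both times and 8 for operated against intact arteries. Fitting only the groups compared was not run for the F test and the comparison of all operated arteries, which use all groups. The cause of these changes was not tested.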
